A study of Mus musculus with 25 samples.

Results

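The 7 genes described here cover the epithelial alarm cytokines TSLP and IL-24, receptor chains that read them, and receptor chains for IL-31 and oncostatin M. They are the ligands Tslp and Il24 and the receptor subunits Crlf2, Il20ra, Il20rb, Il31ra and Osmr. They were taken by name, as 7 of the 24061 gene rows of the count table, and all 7 were present and passed the filter on low counts in every comparison. RNA had been counted in 21 libraries of sorted mouse skin cells (strain B6, female), in 3 sets, with skin and wounds taken at postnatal day 60. A further 4 pooled ATAC-seq samples, an assay that marks open chromatin with a transposase, gave the peak lists used at the end.

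In the set CL, wounded HFSC lineage cells (2 libraries) were compared with hair follicle stem cells (HFSC, 2), and wounded epidermal stem cells (wounded EpdSC, 2) with epidermal stem cells (EpdSC, 2). The wounded cells came from Sox9CreER;R26-YFP mice, in which Cre driven by Sox9 turns on YFP, and were split by YFP (positive for the HFSC lineage, negative for EpdSC). The unwounded cells were split by CD34 and Sca1, so wound and gate changed together and cannot be told apart. All were sorted as lineage negative with high integrin alpha 6. The set BK held 1 library of wounded EpdSC, gated on integrin alpha 6 with no YFP selection, 2 of HFSC and 2 of EpdSC. The count column of the wounded library has a longer name than its title. Whether the extra letters name a further selection was not settled. In the set DS, GFP positive cells of grafted tumours labelled TbrKO, HRas TbrKO and HRas gave 1 library each of high and of low integrin alpha 6, and HFSC and EpdSC of skin labelled Tbr gave 1 library each. The 4 libraries of HRas TbrKO and HRas tumours are called HRas-bearing.

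TSLP is released by keratinocytes at injured or inflamed barriers and binds CRLF2, which signals together with the IL-7 receptor chain IL7R. IL-24 belongs to the IL-20 family and acts through IL20RA with IL20RB, or through IL22RA1 with IL20RB. IL-31, an itch cytokine made mainly by T cells, binds IL31RA paired with OSMR, and OSMR also pairs with gp130 (Il6st) to read oncostatin M. All these receptors pass their signal to Janus kinases and STAT factors.

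Total counts per library were 14216472 to 36425082. Defining markers were checked in unwounded skin, where Cd34 was 430 to 3098 CPM (each library's counts scaled to a common total, with TMM factors) in all 5 HFSC libraries and 3.37 to 17.5 CPM in all 5 EpdSC libraries. The EpdSC markers Ly6a, Klf5 and Gata3 were each higher in every EpdSC than in every HFSC library. The HFSC marker Krt15 did not separate the CL groups, at 10159 and 10442 CPM in HFSC, against 12534 and 11134 CPM in EpdSC. In BK and Tbr skin it was higher in HFSC. In the wounded HFSC lineage Cd34 was 2.32 and 2.46 CPM and Lhx2 4.82 and 4.02 CPM, against 184 and 176 CPM of Lhx2 in HFSC. Cd34 and Lhx2 were thus near absent, while the wound keratin Krt6a stood at 14072 and 12853 CPM. Sox9 fell but stayed at 46.4 and 45.8 CPM, against 157 and 169 CPM in HFSC and 23.6 and 35.6 CPM in CL wounded EpdSC. Krt15 fell but stayed at 330 and 223 CPM. Markers of differentiating, suprabasal cells summed to 36835 and 30638 CPM in the wounded HFSC lineage, against 1870 and 3056 CPM in HFSC, and to 28153 and 22269 CPM in CL wounded EpdSC, against 10905 and 5771 CPM in EpdSC. They were 6619 CPM in BK wounded EpdSC, against 7699 and 8077 CPM in EpdSC, and their part in the wound changes described here was not tested. The wound keratins Krt6a, Krt6b and Krt16 summed to 5537 CPM in BK wounded EpdSC, against 2350 and 340 CPM in BK EpdSC. In CL they summed to 49677 and 36492 CPM in wounded EpdSC, against 82.4 and 129 CPM in EpdSC. The part of this in differences between the BK and CL wound changes was not tested. Basal keratinocyte markers went both ways in CL wounded EpdSC. Itga6 was 176 and 535 CPM, against 1155 and 1160 CPM in EpdSC, and Trp63 265 and 474 CPM, against 1256 and 1201 CPM. Itgb4 and Cdh1 were lower too, while Krt5 and Krt14 were higher. The EpdSC marker Klf5 was 41.0 and 69.3 CPM there, against 189 and 160 CPM in EpdSC and 99.6 and 93.9 CPM in the wounded HFSC lineage. Gata3 was 32.7 and 49.6 CPM, against 475 and 395 CPM in EpdSC and 70.0 and 73.1 CPM in the wounded HFSC lineage. Ly6a was higher in CL wounded EpdSC, at 1206 and 798 CPM, against 204 and 225 CPM in EpdSC. The part of these shifts in the falls of Osmr, Il20ra, Il20rb and Il6st there was not tested. Despite the lineage gate, 8 leukocyte markers summed to 3779 and 2987 CPM in CL wounded EpdSC, against 32.0 and 20.4 CPM in EpdSC, and to 26.7 to 105 CPM in the wounded HFSC lineage and HFSC. Cd74 alone gave 3179 and 2352 CPM of the sums in CL wounded EpdSC. Each of the other markers, such as Ptprc at 24.8 and 96.4 CPM, was also higher there than in EpdSC. Tumour libraries had 188 to 1467 CPM of leukocyte and 888 to 11150 CPM of fibroblast markers. The labels do not spell out which gene Tbr stands for. Tgfbr2 was 455 and 187 CPM in TbrKO, 213 and 228 CPM in HRas TbrKO and 198 and 224 CPM in HRas tumour cells (high and low gate), and a count over a whole gene does not check the deletion of part of it.

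Promoters are shown for the receptor genes Il31ra and Il20ra, since open chromatin at these starts differed between the populations (last paragraphs). Each line holds the 250 bases before the gene start, on the gene's own strand, from RefSeq on build GRCm38.p6 (mm10). Capitals mark matches, on either strand, to the letters TTCNNNGAA (STAT) or TGANTCA (AP-1). The letters TATAAA and GGGCGG were also searched, on both strands, and had no match in either stretch. Promoters were matched for 5 members (Crlf2, Il20ra, Il20rb, Il31ra and Osmr).
Il31ra, chr13:112580663-112580912, minus strand: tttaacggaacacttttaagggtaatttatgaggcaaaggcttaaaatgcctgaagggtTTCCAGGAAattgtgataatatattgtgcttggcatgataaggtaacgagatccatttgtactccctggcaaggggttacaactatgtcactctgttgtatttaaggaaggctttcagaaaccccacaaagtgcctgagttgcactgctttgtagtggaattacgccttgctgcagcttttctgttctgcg
Il20ra, chr10:19712337-19712586, plus strand: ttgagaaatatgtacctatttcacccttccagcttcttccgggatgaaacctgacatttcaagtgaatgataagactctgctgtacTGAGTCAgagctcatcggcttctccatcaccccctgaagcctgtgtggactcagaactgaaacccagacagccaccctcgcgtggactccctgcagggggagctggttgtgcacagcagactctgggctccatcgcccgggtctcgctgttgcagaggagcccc
Among the 250 bases before 27025 gene starts, 7.18% held a TTCNNNGAA match and 6.87% a TGANTCA match. The match lies 191 bases before the Il31ra start and 164 bases before the Il20ra start. The Il20ra stretch lies inside the gene span, which begins further upstream at chr10:19711673, and the Il31ra stretch overlaps its gene span in part. The Crlf2, Il20rb and Osmr stretches held neither, and had 5, 1 and 2 matches to GGGCGG (32.9% of all starts held at least 1). A match is a description of letters only.

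Tslp rose on wounding in both lineages of CL. The wounded HFSC lineage had 71.4 and 70.8 CPM, against 2.40 and 1.42 CPM in HFSC. Wounded EpdSC had 140 and 151 CPM, against 4.90 and 3.86 CPM in EpdSC. Neither pair of groups overlapped, and the wounded EpdSC were the highest of the 15 groups. The log2 fold change was 5.20 ± 0.29 (SE) in the HFSC lineage (edgeR quasi-likelihood test, adjusted p = 3.08e-05) and 5.03 ± 0.29 in EpdSC (edgeR, adjusted p = 2.60e-05). The difference between the 2 responses (always HFSC lineage minus EpdSC) was 0.16 ± 0.36 (edgeR, adjusted p = 0.760). In BK the wounded EpdSC library had 30.2 CPM, against 4.50 and 9.78 CPM in EpdSC. It was above both, but the increase of 2.02 ± 0.53 on the log2 scale missed the threshold (edgeR, adjusted p = 0.0637). It passed without EpdSC library 1 or 2 (edgeR, adjusted p = 0.00783 and 0.00445), where the spread rests on the HFSC pair.

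Among lineages, Tslp was lower in the wounded HFSC lineage than in wounded EpdSC, at -1.04 ± 0.24 on the log2 scale (edgeR, adjusted p = 0.0315). It was also lower in HFSC than in EpdSC, by -1.20 ± 0.27 in CL (edgeR, adjusted p = 0.0270) and -2.12 ± 0.48 in BK (edgeR, adjusted p = 0.0362), where HFSC had 1.74 and 1.56 CPM. These 3 calls each rest on few libraries. The first was lost without wounded HFSC library A or B (edgeR, adjusted p = 0.108 and 0.196). The CL one was lost without HFSC library B or EpdSC library A or B (edgeR, adjusted p = 0.127, 0.236 and 0.0894), and the BK one without HFSC library 1 or 2 (edgeR, adjusted p = 0.107 and 0.134). Without BK EpdSC library 2 the BK value was -1.44. An annotated gene, 4930455D15Rik, overlaps the span of Tslp on chromosome 18, and the strand setting of the counting is not given in the sources used here.

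In tumours Tslp was near the level of unwounded skin. It was 3.40 and 3.32 CPM in TbrKO, 11.97 and 9.17 CPM in HRas TbrKO and 2.88 and 4.75 CPM in HRas cells (high and low gate), against 3.43 CPM in Tbr HFSC and 11.5 CPM in Tbr EpdSC. Both HRas TbrKO libraries were above both HRas libraries, by 1.5 ± 0.35 on the log2 scale, short of the threshold (edgeR, adjusted p = 0.286; DESeq2, adjusted p = 0.0229). High integrin tumour cells and Tbr skin differed by -0.29 ± 0.83 (edgeR, adjusted p = 0.812).

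Il24 was high in wounds and highest in tumours that carry HRas, an order across sets that was not tested. In CL the wounded HFSC lineage had 12.4 and 27.8 CPM, against 0.207 and 0.539 CPM in HFSC. Wounded EpdSC had 18.9 and 34.3 CPM, against 0.0419 and 0.257 CPM in EpdSC. Again the groups did not overlap. The log2 fold change was 5.78 ± 0.72 in the HFSC lineage (edgeR, adjusted p = 0.000613) and 7.61 ± 0.85 in EpdSC (edgeR, adjusted p = 0.000289). The EpdSC value rests on 5 reads in the unwounded group against 1168 in the wounded one, a ratio of 214 with an exact 95% interval of 91.5 to 660.5 for counting error only. Without EpdSC library A it was 6.66 and without B 9.14 on the log2 scale, and the HFSC lineage value was 6.59 without HFSC library B and 5.14 without wounded HFSC library B. The responses differed by -1.83 ± 1.19 (edgeR, adjusted p = 0.275).

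In BK, Il24 stood at 45.3 CPM in wounded EpdSC, 0.0858 and 0.839 CPM in HFSC, and 10.6 and 2.23 CPM in EpdSC. Wounded EpdSC were above all 4 unwounded libraries of that set, at 2.75 ± 1.10 over EpdSC on the log2 scale (edgeR, adjusted p = 0.138; DESeq2, adjusted p = 0.0135). EpdSC library 1, the higher of its group, also had 1612 CPM of Krt6a against 137 CPM in library 2. HFSC against EpdSC gave -3.79 ± 1.10 (edgeR, adjusted p = 0.0738) in BK and 1.43 ± 1.06 (edgeR, adjusted p = 0.517) in CL.

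Across tumours Il24 was 5.94 and 2.99 CPM in TbrKO, 492 and 286 CPM in HRas TbrKO and 459 and 378 CPM in HRas cells, against 0.872 CPM in Tbr HFSC and 1.73 CPM in Tbr EpdSC. All 4 HRas-bearing libraries were far above both TbrKO libraries, which were in turn above both skin libraries. TbrKO fell against the HRas-bearing tumours by 6.56 ± 0.25 on the log2 scale (edgeR, adjusted p = 0.000727), and the value was -6.76 to -6.33 with any 1 of the 6 libraries left out. In this and the other tests between tumour genotypes, the 2 gates of a genotype served as its replicates. Their SE and p therefore do not measure the spread between tumours or mice. The 2 HRas-bearing genotypes differed by -0.15 ± 0.20 (edgeR, adjusted p = 0.819). High integrin tumour cells of the 3 genotypes together were above Tbr skin by 7.94 ± 2.65, which did not pass (edgeR, adjusted p = 0.0684; DESeq2, adjusted p = 8.8e-06), and by 8.51 without TbrKO, which passed (edgeR, adjusted p = 0.0254). Il24 was higher in the high than in the low gate of each genotype, by 0.69 ± 0.17 (edgeR, adjusted p = 0.101; DESeq2, adjusted p = 0.0178).

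**Figure D1:**
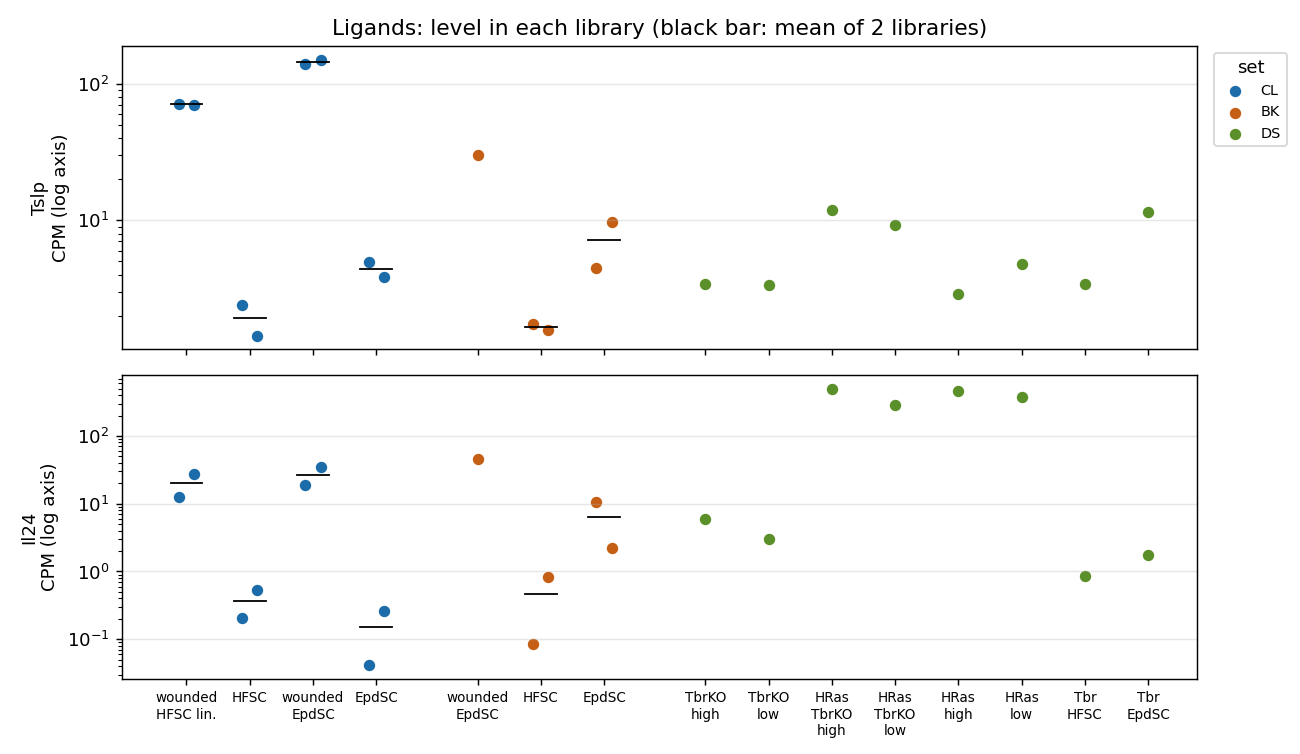
CPM of Tslp (top) and Il24 (bottom) in each of the 21 libraries on a log axis, coloured by set, with a black bar at the mean of groups of 2 libraries. Tslp is highest in the CL wounded groups (70.8 to 151 CPM) and Il24 in the HRas-bearing tumours (286 to 492 CPM).

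Crlf2, the TSLP-binding receptor chain, was low in skin and higher in CL wounded EpdSC and in tumours. Wounded HFSC lineage cells had 7.32 and 6.63 CPM, against 5.50 and 5.50 CPM in HFSC. Wounded EpdSC had 32.8 and 24.4 CPM, against 6.24 and 6.62 CPM in EpdSC. The change in EpdSC passed, at 2.13 ± 0.24 (edgeR, adjusted p = 0.000308), and that in the HFSC lineage did not, at 0.33 ± 0.24 (edgeR, adjusted p = 0.280). The difference of the responses was -1.80 ± 0.33 (edgeR, adjusted p = 0.0119), and -1.62 to -1.97 with any 1 of the 8 libraries left out. It did not pass without EpdSC library A or B or wounded HFSC library B (edgeR, adjusted p = 0.0676, 0.0528 and 0.0591). Between the wounded groups themselves, the HFSC lineage was lower by 2.03 ± 0.24 (log2 fold change -2.03; edgeR, adjusted p = 0.00221).

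The rise of Crlf2 in CL wounded EpdSC came with the leukocyte markers given above. Fibroblast markers moved too, at 646 and 692 CPM, against 2.85 and 2.51 CPM in EpdSC. In BK, wounded EpdSC had 21.4 CPM of leukocyte markers, against 66.9 and 27.5 CPM in EpdSC. There Crlf2 was 6.56 CPM in wounded EpdSC, against 7.21 and 5.29 CPM in EpdSC, within the range of the unwounded cells (log2 fold change 0.01 ± 0.45; edgeR, adjusted p = 0.998). The part of these other cells in the Crlf2 level was not tested. In bulk samples, fewer cells of a type and less RNA per cell cannot be told apart.

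In tumours Crlf2 was 23.6 and 20.9 CPM in TbrKO, 14.5 and 22.2 CPM in HRas TbrKO and 11.3 and 11.96 CPM in HRas cells, against 3.55 CPM in Tbr HFSC and 3.82 CPM in Tbr EpdSC. All 6 tumour libraries were above both skin libraries. High integrin tumour cells were above Tbr skin by 2.16 ± 0.45 (edgeR, adjusted p = 0.0194), a call that did not hold without the HRas TbrKO, Tbr HFSC or Tbr EpdSC library (edgeR, adjusted p = 0.0513, 0.0835 and 0.0825). Leukocyte markers in the high gate were 188 to 419 CPM, against 97.1 and 29.04 CPM in Tbr skin, and fibroblast markers 888 to 2137 CPM, against 36.3 and 8.15 CPM. Their part in this difference was not tested. HFSC and EpdSC did not pass in CL (-0.23 ± 0.24) or in BK (-0.28 ± 0.37; edgeR, adjusted p = 0.668 and 0.664).

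**Figure D2:**
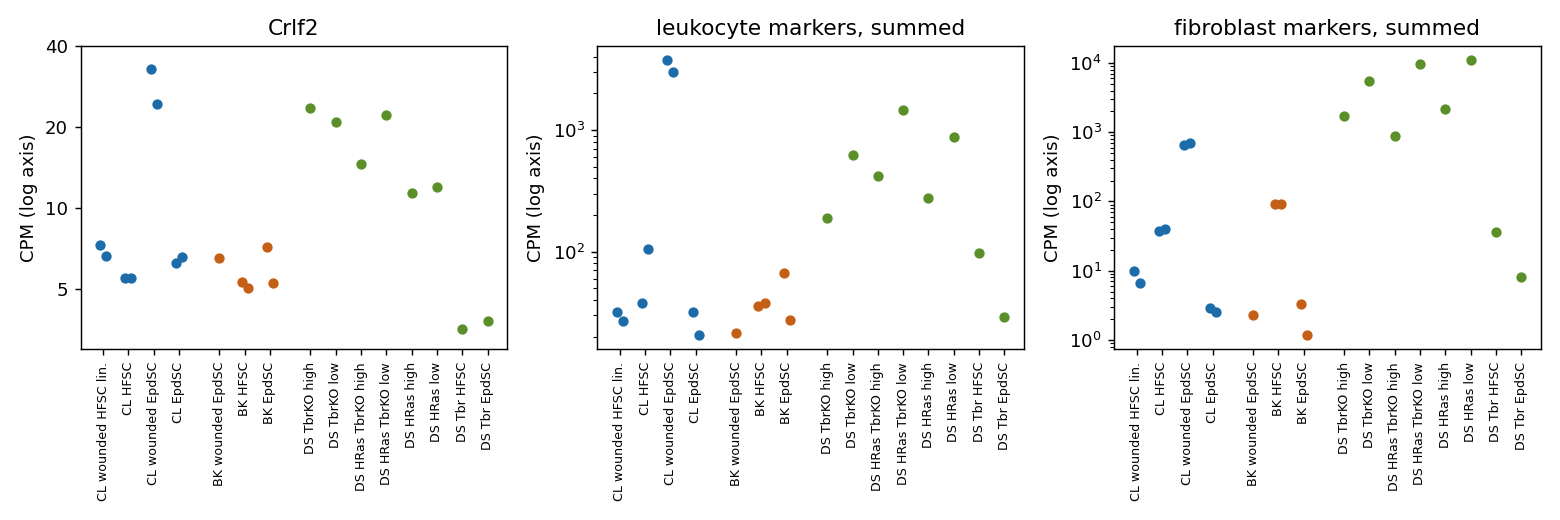
CPM on log axes, in each library, of Crlf2 (left) and of the summed leukocyte (middle) and fibroblast markers (right), coloured by set as CL blue, BK orange and DS green. Among the skin and wound libraries those of CL wounded EpdSC are highest in all 3 panels (Crlf2 at 32.8 and 24.4 CPM), and the tumours are above them in fibroblast markers.

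Il20ra, the chain that pairs with IL20RB to bind IL-24, marked epidermal stem cells in skin. HFSC had 5.44 and 10.05 CPM in CL, against 141 and 141 CPM in EpdSC. In BK, HFSC had 4.37 and 8.44 CPM, against 97.1 and 267 CPM in EpdSC. HFSC were lower in both sets, at -4.19 ± 0.33 on the log2 scale in CL (edgeR, adjusted p = 0.000386) and -4.84 ± 0.67 in BK (edgeR, adjusted p = 0.00813). Without BK EpdSC library 2 the BK value was -3.91. In Tbr skin the levels were 38.4 CPM in HFSC and 238 CPM in EpdSC, with no replicate.

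On wounding, Il20ra fell in CL EpdSC and the lineages no longer stood apart. Wounded EpdSC had 9.41 and 9.50 CPM, and the wounded HFSC lineage 13.9 and 10.4 CPM. The EpdSC change was -3.91 ± 0.33 (edgeR, adjusted p = 8.92e-05), whereas the HFSC lineage changed by 0.64 ± 0.30, which did not pass (edgeR, adjusted p = 0.115). The difference of the responses, 4.55 ± 0.44, passed (edgeR, adjusted p = 0.00105). The wounded groups differed by 0.36 ± 0.30 (edgeR, adjusted p = 0.361). In BK wounded EpdSC Il20ra was 129 CPM, between the EpdSC libraries (-0.57 ± 0.72; edgeR, adjusted p = 0.607). The BK wounded cells were not selected against YFP, and also kept 72.6 CPM of Il22ra2, against 68.0 and 133 CPM in BK EpdSC, a gene at 0.299 and 0.174 CPM in CL wounded EpdSC.

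Tumours had little Il20ra. It was 3.62 and 0.974 CPM in TbrKO, 0.893 and 4.24 CPM in HRas TbrKO and 0.904 and 5.02 CPM in HRas cells. High integrin tumour cells were below Tbr skin by 6.28 ± 1.12 on the log2 scale (log2 fold change -6.28; edgeR, adjusted p = 0.0131). The call was lost without the HRas, HRas TbrKO or Tbr EpdSC library (edgeR, adjusted p = 0.0549, 0.0511 and 0.0563), with values from -4.40 to -5.96, and the value was -7.24 without TbrKO and -7.06 without Tbr HFSC. The gates went opposite ways, higher in low cells of both HRas-bearing genotypes and lower in low cells of TbrKO, and the gate comparison did not pass (-1.04 ± 0.99; edgeR, adjusted p = 0.556). Without the TbrKO genotype it did (-2.38; edgeR, adjusted p = 0.00297). An annotated gene, Gm33332, overlaps the span of Il20ra.

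Il20rb, the chain shared by both IL-24 receptors, was present in every group and lowest in tumours. In CL the wounded HFSC lineage had 198 and 146 CPM, against 239 and 317 CPM in HFSC. Wounded EpdSC had 190 and 159 CPM, against 461 and 374 CPM in EpdSC. It fell in both, by 0.70 ± 0.24 (edgeR, adjusted p = 0.0424) and by 1.28 ± 0.24 (edgeR, adjusted p = 0.00304) on the log2 scale, with groups that did not overlap. The call in the HFSC lineage was lost without HFSC library B (edgeR, adjusted p = 0.223), without wounded HFSC library A or B (edgeR, adjusted p = 0.0795 and 0.327), with RLE scaling (edgeR, adjusted p = 0.0596), with a fit of the 4 libraries alone (edgeR, adjusted p = 0.0527) and with the counts by Ensembl ID (edgeR, adjusted p = 0.0559). The difference of the responses was 0.57 ± 0.34 (edgeR, adjusted p = 0.235).

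In BK, Il20rb was 283 CPM in wounded EpdSC, 205 and 281 CPM in HFSC, and 522 and 434 CPM in EpdSC. Neither the wound difference (-0.82 ± 0.42; edgeR, adjusted p = 0.219) nor that between HFSC and EpdSC (-0.98 ± 0.33; edgeR, adjusted p = 0.109) passed, although no group overlapped EpdSC. In tumours the order was TbrKO at 27.5 and 29.5 CPM, HRas TbrKO at 16.01 and 19.7 CPM, and HRas at 10.04 and 13.3 CPM. Tbr HFSC had 206 CPM and Tbr EpdSC 290 CPM. TbrKO was higher than the HRas-bearing tumours by 0.98 ± 0.15 (edgeR, adjusted p = 0.00679), and high integrin tumour cells were lower than Tbr skin by 3.80 ± 0.49 (log2 fold change -3.80; edgeR, adjusted p = 0.00603). HRas TbrKO against HRas gave 0.63 ± 0.17 (edgeR, adjusted p = 0.337).

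Il31ra, the IL-31 binding chain, was a gene of unwounded hair follicle stem cells. HFSC had 323 and 138 CPM in CL, against 2.60 and 3.599 CPM in EpdSC. In BK, HFSC had 584 and 531 CPM, against 0.835 and 13.1 CPM in EpdSC. The log2 fold change was 6.21 ± 0.48 in CL (edgeR, adjusted p = 0.000382) and 6.31 ± 1.27 in BK (edgeR, adjusted p = 0.0246). It was 5.48 in CL without HFSC library A, and in BK 5.38 without EpdSC library 1 and 9.38 without library 2. In Tbr skin HFSC had 912 CPM, the highest of all 21 libraries, and EpdSC 2.73 CPM.

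Outside unwounded skin Il31ra was at or below 0.393 CPM in every library, that is 1 to 11 reads. The wounded HFSC lineage had 0.312 and 0.303 CPM, and fell by 9.53 ± 0.58 on the log2 scale (edgeR, adjusted p = 4.03e-05). HFSC held 14503 reads in all, against 17 in the wounded lineage. Wounded EpdSC had 3 and 1 reads, against 62 and 56 in EpdSC, so the wounded level was 0.0311 times that of EpdSC with an exact 95% interval of 0.00833 to 0.0817 for counting error only (-4.98 ± 0.68; edgeR, adjusted p = 0.000672). The 2 falls were -8.80 without HFSC library A, and -5.97 and -4.34 without wounded EpdSC library A and B. The responses differed by -4.55 ± 1.33, which did not pass (edgeR, adjusted p = 0.0538), but did with DESeq2 (adjusted p = 8.02e-05), with RLE scaling (edgeR, adjusted p = 0.0463), with no filter (edgeR, adjusted p = 0.0209) and without HFSC library A or B (edgeR, adjusted p = 0.0410 and 0.0219).

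Tumour libraries had 0.234 to 0.393 CPM of Il31ra in all 3 genotypes and both gates. High integrin tumour cells were below Tbr skin by 10.45 ± 2.01 on the log2 scale (log2 fold change -10.45; edgeR, adjusted p = 0.0161), where the 2 skin libraries themselves differ widely. The value was -3.07 without Tbr HFSC and -11.43 without Tbr EpdSC, and the call was lost without the HRas or HRas TbrKO library (edgeR, adjusted p = 0.0658 and 0.0613). In BK the wounded EpdSC library had 5 reads (0.267 CPM), and its difference from EpdSC did not pass (-4.74 ± 1.88; edgeR, adjusted p = 0.135). The ligand Il31 had 0 reads in all 21 libraries.

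Osmr, the partner of IL31RA and of gp130, was lower in CL wounded cells. The wounded HFSC lineage had 33.0 and 45.0 CPM, against 89.0 and 77.2 CPM in HFSC. Wounded EpdSC had 9.11 and 21.5 CPM, against 101 and 113 CPM in EpdSC. Neither pair of groups overlapped. The log2 fold changes were -1.09 ± 0.38 in the HFSC lineage (edgeR, adjusted p = 0.0463) and -2.81 ± 0.40 in EpdSC (edgeR, adjusted p = 0.000877). The EpdSC value was -2.30 without wounded EpdSC library A and -3.58 without B. The call in the HFSC lineage was lost with any 1 of its 4 libraries left out (edgeR, adjusted p = 0.158 without HFSC A, 0.106 without HFSC B, 0.234 without wounded HFSC A and 0.0865 without wounded HFSC B).

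The wounded HFSC lineage was above wounded EpdSC in Osmr by 1.34 ± 0.39 (edgeR, adjusted p = 0.0484). That call was lost without wounded HFSC library A or B or wounded EpdSC library A (edgeR, adjusted p = 0.102, 0.243 and 0.0843), and the value was 2.12 without wounded EpdSC library B. The responses differed by 1.71 ± 0.54, which did not pass (edgeR, adjusted p = 0.0644; DESeq2, adjusted p = 0.0128). In BK wounded EpdSC Osmr was 150 CPM, above 54.0 and 121 CPM in EpdSC, so the direction was opposite to CL without passing (0.72 ± 0.53; edgeR, adjusted p = 0.377). HFSC and EpdSC did not pass in CL (-0.37 ± 0.38; edgeR, adjusted p = 0.663) or BK (-0.73 ± 0.45; edgeR, adjusted p = 0.338).

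In tumours Osmr separated TbrKO, with 165 and 114 CPM, from HRas TbrKO, with 21.3 and 42.6 CPM, and HRas cells, with 21.8 and 46.9 CPM. Tbr HFSC had 117 CPM and Tbr EpdSC 166 CPM. TbrKO was higher than the HRas-bearing tumours by 2.19 ± 0.34 (edgeR, adjusted p = 0.00738), by 1.38 without its high and by 2.93 without its low integrin library. High integrin tumour cells against Tbr skin gave -1.06 ± 0.91 (edgeR, adjusted p = 0.406), with TbrKO within the range of skin and the other 2 below it. Without TbrKO the value was -2.69 and passed (edgeR, adjusted p = 0.0153).

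**Figure D3:**
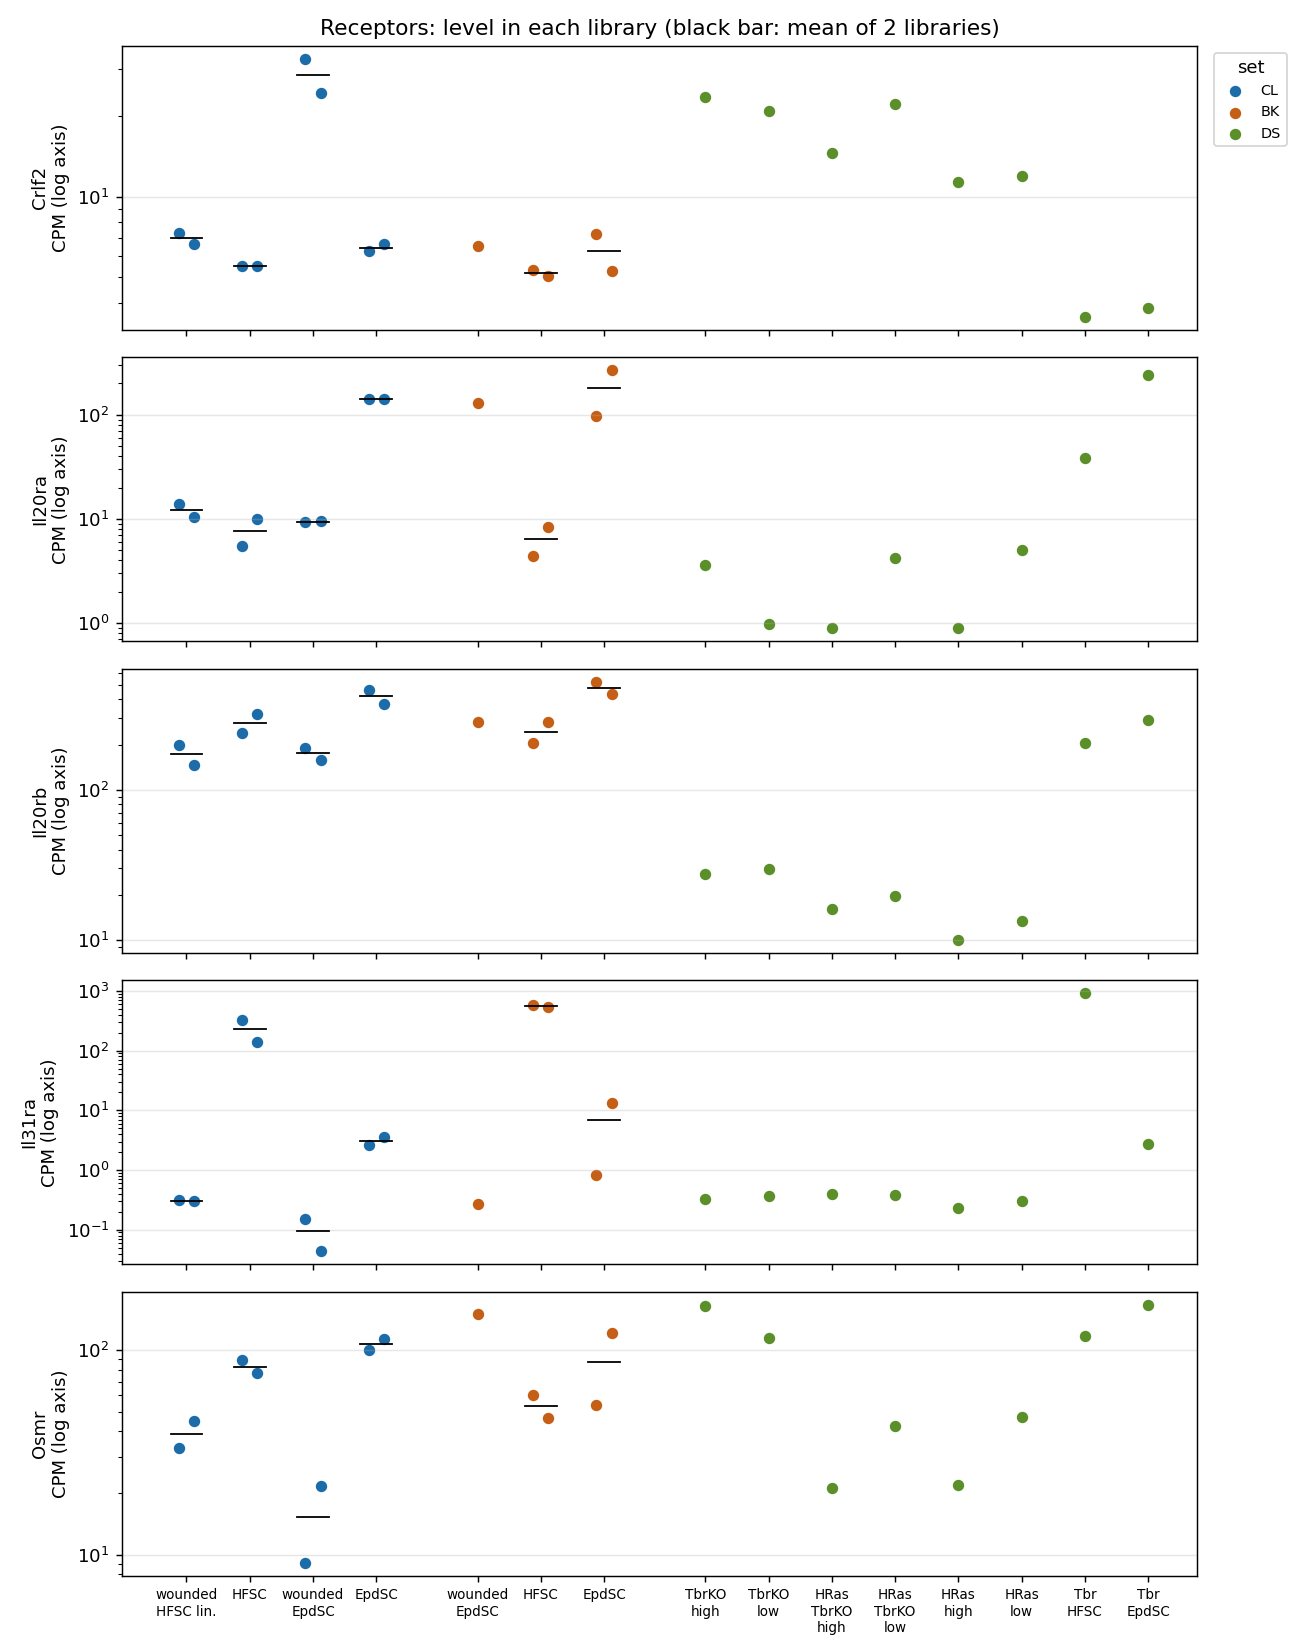
CPM of the 5 receptor genes in each of the 21 libraries on log axes, coloured by set, with a black bar at the mean of groups of 2 libraries. Il31ra is above 100 CPM in the 5 HFSC libraries only, Il20ra is highest in EpdSC, and Il20rb is at 10.04 to 29.5 CPM in tumours against 146 CPM or more elsewhere.

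Counted over the members, 5 of 7 passed in the wound response of the HFSC lineage (2 higher, 3 lower), where 46.1% of all 14831 tested genes passed. All 7 passed in that of EpdSC (3 higher, 4 lower), where 58.4% of genes did. Between the wounded groups 3 of 7 passed, against 19.2% of genes. Between HFSC and EpdSC 3 of 7 passed in CL, against 10.8%, and 3 of 7 in BK, against 14.4% of 14663 genes. The median log2 fold change of the members was 0.33 in the HFSC lineage response and -1.28 in that of EpdSC, against -0.10 and -0.04 over all genes. The test of the difference of the responses called 2 of 7, against 15.8% of genes.

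In BK 0 of 7 members passed on wounding, where edgeR called 7.97% of genes. An unadjusted p under 0.05 was reached by 3 members and by 5050 of 14663 genes. DESeq2 called 2 members and 23.3% of all genes. Of the tumour comparisons, edgeR called 3 of 7 for TbrKO against HRas-bearing tumours (41.8% of 15113 genes) and 4 of 7 for high integrin tumour cells against Tbr skin (21.5% of 15471 genes). For high against low integrin it called 0 of 7 (3.07% of 14519 genes), with 1 member at an unadjusted p under 0.05 and 1 called by DESeq2. For HRas TbrKO against HRas it called 0 of 7 and 0% of all 15113 genes. An unadjusted p under 0.05 was found for 1701 of those genes and for 3 members, and 404 genes and 1 member were called by DESeq2.

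**Figure D4:**
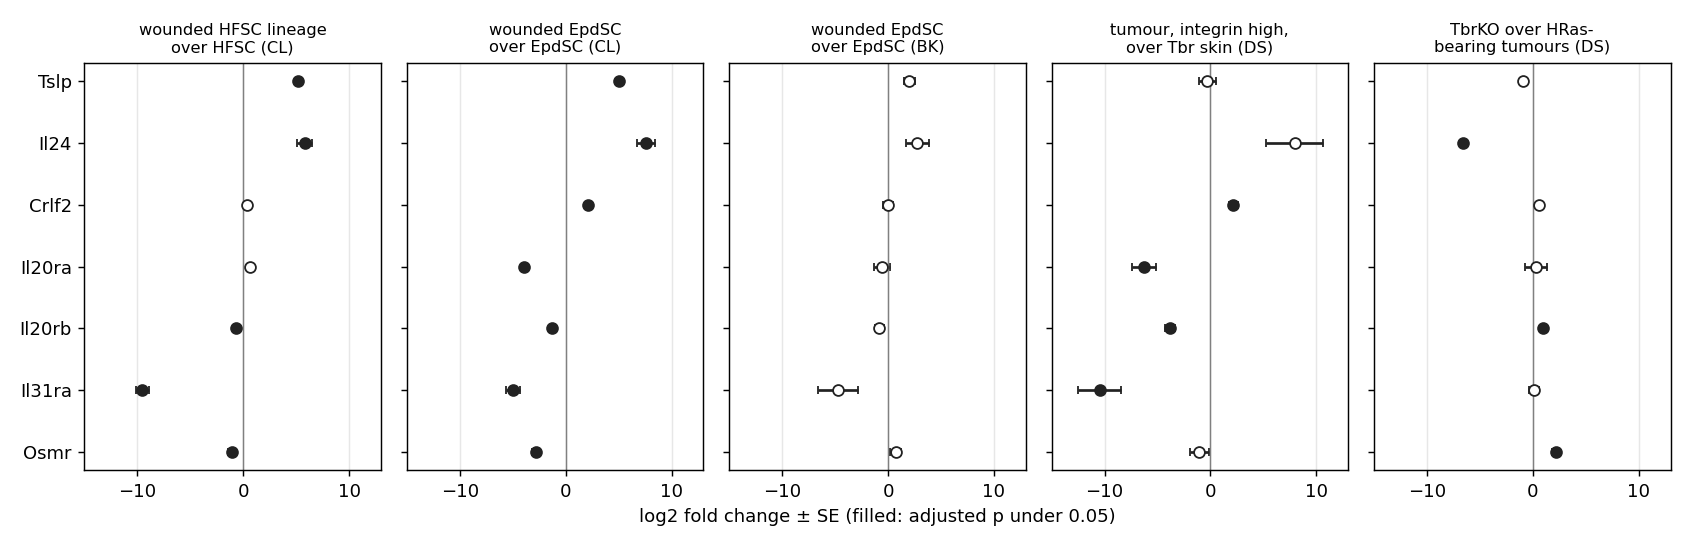
Log2 fold change with its standard error (horizontal axis) of the 7 members in 5 comparisons, with filled points for an adjusted p under 0.05. The ligands lie to the right and Il31ra to the left in both CL wound comparisons, and Il24 lies far to the left in TbrKO against HRas-bearing tumours (-6.56).

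Of 40 further genes of these pathways, 37 were tested in CL. On wounding 11 were higher and 13 lower in the HFSC lineage, where 46.1% of all genes passed, with a median log2 fold change of -0.01. In EpdSC 14 were higher and 11 lower, where 58.4% of all genes passed, with a median of 0.07. Il22ra2, a soluble decoy receptor for IL-22, and the feedback inhibitor Socs3 fell in both. Il22ra2 changed by -5.71 ± 0.41 and -8.23 ± 0.44 (edgeR, adjusted p = 6.43e-05 and 2.06e-05), and Socs3 by -4.02 ± 0.32 and -3.30 ± 0.31 (edgeR, adjusted p = 9.26e-05 and 0.000137). The cytokine Il6 was also lower in both, by -5.49 ± 0.87 and -5.48 ± 0.85 (edgeR, adjusted p = 0.00177 and 0.00122). In BK it stood the other way, at 13.8 CPM in wounded EpdSC, against 1.31 and 2.55 CPM in EpdSC, without passing (2.78 ± 0.84; edgeR, adjusted p = 0.0807). Il11ra1, the IL-11 receptor chain, fell by 3.68 ± 0.30 in the HFSC lineage and by 2.29 ± 0.29 in EpdSC (edgeR, adjusted p = 0.000106 and 0.000475). In BK it was 52.3 CPM in wounded EpdSC, above 42.7 and 21.01 CPM in EpdSC, also without passing (0.65 ± 0.48; edgeR, adjusted p = 0.373).

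Il19, a relative of IL-24 that uses the same IL20RA and IL20RB pair, followed it. It was at 2.12 and 1.74 CPM in the wounded HFSC lineage and 2.99 and 2.44 CPM in wounded EpdSC, with 0 reads in all 4 unwounded CL libraries. It passed in both (edgeR, adjusted p = 0.00137 and 0.00111). In tumours it was 2.77 and 1.85 CPM in TbrKO, 67.4 and 28.6 CPM in HRas TbrKO and 25.1 and 14.7 CPM in HRas cells, and TbrKO was lower than the HRas-bearing tumours by 3.71 ± 0.24 (log2 fold change -3.71; edgeR, adjusted p = 0.00105). Il20 was at most 0.842 CPM and Il22 at most 0.471 CPM in any library.

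The receptor partners of the members moved in different ways. Il7r, the partner of CRLF2, was 0.173 and 0.114 CPM in the wounded HFSC lineage, against 0.266 and 0.539 CPM in HFSC (edgeR, adjusted p = 0.293). It was 5.08 and 16.7 CPM in wounded EpdSC, against 0.0419 and 0.450 CPM in EpdSC (5.61 ± 0.98; edgeR, adjusted p = 0.00211). Osm, the ligand of OSMR made by myeloid and T cells, was 9.21 and 47.1 CPM in wounded EpdSC, with 0 reads in EpdSC (edgeR, adjusted p = 0.00266). Il10ra, the IL-10 receptor chain of leukocytes, was at 39.0 and 34.5 CPM there, against 0.126 and 0 CPM in EpdSC (8.83 ± 0.91; edgeR, adjusted p = 0.000208), and Il27ra and Cntfr were the other genes of large size (edgeR, adjusted p = 0.00302 and 0.000291). These libraries are the ones with leukocyte markers at 3779 and 2987 CPM, whose part was not tested.

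Il22ra1, the other partner of IL20RB, was 45.6 and 43.1 CPM in the wounded HFSC lineage, against 43.9 and 44.8 CPM in HFSC (-0.01 ± 0.19; edgeR, adjusted p = 0.976). It was 30.8 and 32.9 CPM in wounded EpdSC, against 14.6 and 11.6 CPM in EpdSC (1.26 ± 0.19; edgeR, adjusted p = 0.00117). So in CL wounded EpdSC Il20ra fell while Il22ra1 rose. In BK, Il22ra1 was 9.91 CPM in wounded EpdSC, against 21.8 and 13.4 CPM in EpdSC, below both without passing (-0.89 ± 0.47; edgeR, adjusted p = 0.230). In unwounded skin Il22ra1 ran opposite to Il20ra, higher in HFSC by 1.75 ± 0.20 in CL (edgeR, adjusted p = 0.00139) and 1.66 ± 0.37 in BK (edgeR, adjusted p = 0.0350). Il6st was 61.9 and 99.9 CPM in wounded EpdSC, against 348 and 277 CPM in EpdSC (-1.96 ± 0.28; edgeR, adjusted p = 0.000836), and did not pass in the HFSC lineage (0.52 ± 0.27; edgeR, adjusted p = 0.150). It was lower in HFSC than in EpdSC by -1.48 ± 0.27 in CL and -1.74 ± 0.32 in BK (edgeR, adjusted p = 0.0127 and 0.0189).

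In the other comparisons the counts of these pathway genes were as follows. Between the wounded groups 4 were higher and 9 lower of 37 in the HFSC lineage (19.2% of all genes passed), led by Osm, Il7r (-6.20 ± 0.99), Il27ra and Il10ra (-5.86 ± 0.70; edgeR, adjusted p = 0.0221, 0.00791, 0.0191 and 0.00238). Between HFSC and EpdSC 5 were higher and 6 lower of 37 in CL (10.8% of all genes), and 2 higher and 9 lower of 35 in BK (14.4% of all genes). In BK wounding 0 were higher and 2 lower of 35 (7.97% of all genes), and Socs3 was among those that fell (-2.34 ± 0.41; edgeR, adjusted p = 0.0445).

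In tumours 4 of 37 pathway genes passed between the gates (3.07% of all genes), all lower in the high gate: Il10ra (-2.17 ± 0.24), Osm (-1.89 ± 0.21), Il7r (-1.85 ± 0.22) and Il6 (-1.77 ± 0.24; edgeR, adjusted p = 0.0266, 0.0270, 0.0278 and 0.0370). Leukocyte markers were 188 to 419 CPM in the high gate, against 619 to 1467 CPM in the low gate, and their part was not tested. Between TbrKO and HRas-bearing tumours 11 of 38 were higher and 11 lower (41.8% of all genes passed). Osm was lower in TbrKO, at 3.62 and 15.04 CPM, against 31.7 to 220 CPM in the HRas-bearing libraries (-3.29 ± 0.26; edgeR, adjusted p = 0.00174), while its receptor Osmr was higher. Leukocyte markers were 188 and 619 CPM in TbrKO, against 419 and 1467 CPM in HRas TbrKO and 278 and 879 CPM in HRas cells (high and low gate), and endothelial markers 45.0 and 45.4 CPM in TbrKO, against 86.4 to 212 CPM in the HRas-bearing libraries. Their part was not tested. The cytokine Il7 was higher, at 2.66 ± 0.32 (edgeR, adjusted p = 0.00397), and Il20 and Il27ra were lower (-3.64 ± 0.99 and -2.51 ± 0.43; edgeR, adjusted p = 0.0347 and 0.00959). The Il20 value rests on few reads, 0 and 2 in TbrKO, against 1 and 18 in HRas TbrKO and 7 and 25 in HRas cells (high and low gate). Against Tbr skin 8 were higher and 6 lower of 38 in high integrin tumour cells (21.5% of all genes). Lif, a ligand of gp130, was 178, 58.6 and 89.4 CPM in high integrin TbrKO, HRas TbrKO and HRas cells, against 1.18 and 1.29 CPM in Tbr HFSC and EpdSC (6.45 ± 0.63; edgeR, adjusted p = 0.00291). The comparison of HRas TbrKO with HRas called 0 of 38.

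The 7 members did not form 1 pattern over the 15 groups. Taking log2(CPM + 1) of the group means as a description, the Pearson r was highest for Il20ra with Il20rb (0.81) and lowest for Il24 with Il20rb (-0.75). Tslp and Il24 had an r of 0.28, and Tslp and Crlf2 0.24. Among 16980 genes, the closest to Tslp were Higd1a (0.97), Lypd8 (0.93) and Mtfp1 (0.93). For Il24 they were Gm12603 (0.98), Tmigd1 (0.97) and Mphosph6 (0.96). For Crlf2 they were Bst2 (0.96), C3 (0.93) and Spn (0.93), for Il20ra Satb1 (0.97), Rora (0.96) and 4930550C14Rik (0.96), and for Il20rb Sh3rf2 (0.98), Pou2f3 (0.97) and Oplah (0.97). For Il31ra they were Chat (0.99), Adcy1 (0.99) and Nog (0.99), and for Osmr Nexn (0.95), Pak3 (0.95) and Trim12c (0.94). The groups share sets, sorts and depths, so neither r nor these names carry a test.

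Open chromatin at the members was read from the authors' pooled peak lists, which have no replicates. The lists were of wound stem cells (integrin alpha 6 and Sca1 positive), HRas tumour stem cells (high integrin alpha 6 and beta 1, GFP positive), and HFSC and EpdSC of skin of postnatal day 50, all from CD1/B6 mixed mice. They held 56865, 54201, 55435 and 25742 peaks, from 11140895, 29579794, 26825550 and 13963471 fragments. EpdSC had the fewest peaks and the wound the fewest fragments, so a missing peak, above all in these lists, is not a closed site. Within 1000 bases of the gene start, 4 of the 5 receptor genes had a peak in the wound, 3 in tumour, 5 in HFSC and 4 in EpdSC. Over all 27025 gene starts the shares were 43.9%, 41.5%, 45.3% and 32.5%.

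The Il31ra start had a peak in HFSC only, the population in which its RNA was high. It lay at chr13:112580634-112581393 (mm10), over the promoter printed above, with a fold enrichment of 6.57 as the authors' caller gave it. Within 20 kb of the Il31ra span HFSC had peaks in 8 of 9 merged regions, 7 of them in HFSC alone, a pattern that 20.3% of all 98131 merged regions share. The wound had 2, EpdSC 1 and tumour 0. The region shared by wound, HFSC and EpdSC lay 1.0 kb beyond the far end of the gene, toward Il6st, which is 15.1 kb away.

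At Il20ra the start at chr10:19712587 lay in a peak in wound and in HFSC (chr10:19712153-19713027). EpdSC, in which the RNA was high, had its peak upstream (chr10:19711161-19711655, shared with the wound). The gene span begins at chr10:19711673, before the start used here, and the EpdSC peak ends 18 bases before the span. Which of these 2 positions is used as a start in these cells was not tested. Tumour, with little Il20ra RNA, had none within 1000 bases. The wound list had 4 peaks within the span of Il20ra, against 1 each in tumour and HFSC and 0 in EpdSC. Osmr and Il20rb had a peak over the start in all 4 populations, and Crlf2 had one within 1000 bases of it in all 4, without covering it. Inside Osmr the region chr15:6849784-6850566 had a fold enrichment of 14.4 in wound and 10.9 in tumour, against 3.02 in HFSC and no peak in EpdSC.

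Il24 had 7 merged regions within 20 kb, of which 2 had peaks in wound and tumour only, a pattern held by 9.92% of all merged regions. One, at chr1:130902406-130902994, 15 kb from the end of Il24 that faces Il20, had a fold enrichment of 14.8 in wound and 15.2 in tumour. The other, at chr1:130879961-130880638, lay in the neighbouring gene Fcmr, at 6.89 in wound and 9.95 in tumour. A region inside Il24 (chr1:130886376-130886973) had peaks in all 4 lists, at 9.80 in wound, 10.1 in tumour, 7.85 in HFSC and 7.27 in EpdSC. HFSC, with little Il24 RNA, had peaks in 5 of the 7 regions, as many as the wound, against 4 in tumour and 2 in EpdSC, and 2 regions were in HFSC alone.

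At Tslp, a region 1.0 kb from the end of the gene span with the lower coordinate had peaks in wound, at a fold enrichment of 7.97, in tumour, at 3.71, and in EpdSC, at 6.10, and none in HFSC. A region inside the span had peaks in tumour (3.01), HFSC (6.75) and EpdSC (5.01) and none in the wound. Of the 4 regions within 20 kb, 1 was in all 4 lists and 0 were in wound and tumour only.

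**Figure D5:**
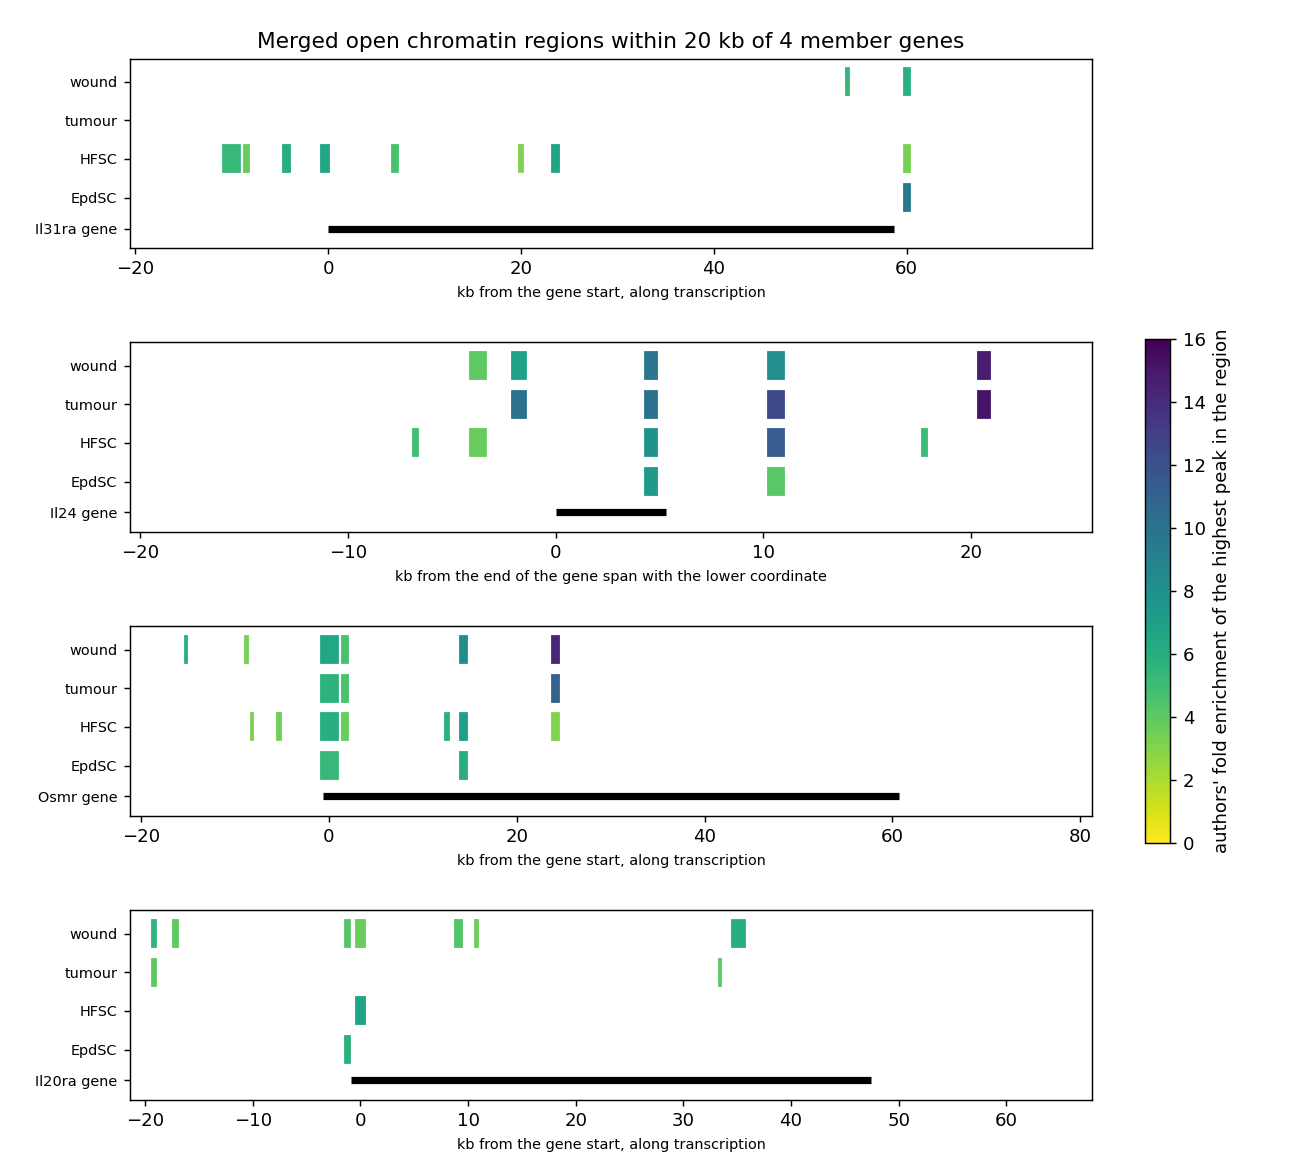
Merged open chromatin regions within 20 kb of the gene span for Il31ra, Il24, Osmr and Il20ra. The horizontal axis gives kb from the gene start along transcription, or for Il24 from the end of the span with the lower coordinate. Rows are the 4 peak lists, colour is the authors' fold enrichment and the black line is the gene. HFSC alone has a peak at the Il31ra start, and the region at the far right of Il24 has peaks in wound (14.8) and tumour (15.2).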

How the data were processed

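RNA was counted in 21 libraries (TruSeq, single reads of 51 cycles, per the labels) and open chromatin in 4 pooled samples. The deposited RNA values are whole-number counts of reads per gene symbol, with no normalisation. All 21 columns were matched by name and 0 were left unmatched, and the row that sums each column was left out. Build mm10, MACS2 2.1.1.20160309, Picard, Bowtie and STAR are named, per the submitters' processing notes, and the gene counter and its strand setting are not given in the sources used here. For the ATAC lists, called by the authors per the file headers with MACS2 at a q-value of 0.05 without a control, each peak carries a pileup signal, a fold enrichment (a ratio) and a -log10 q-value as deposited. Peak values are the authors' own.

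Levels are CPM after TMM scaling of all 21 libraries together. The sets CL, BK and DS were not compared by a test, since set and condition go together. Orders of levels across sets are a description only. Tests were run with edgeR 4.0.16 in R 4.3.3 (filterByExpr, TMM, quasi-likelihood F test, Benjamini-Hochberg over all genes tested, threshold 0.05). The 8 CL, the 5 BK and the 6 tumour libraries were each fitted together, with the gate as a block between genotypes and the genotype as a block between gates, and the 8 DS libraries for tumour against skin. Standard errors were derived from each fold change and its F statistic. Scaling in each fit is its own, so folds can differ slightly from ratios of the CPM given. DESeq2 1.42.0, RLE scaling, no filter, left-out libraries, a replicate block, the count tables by Ensembl ID and smaller fits were tried. The tests were tried on simulated data. The labels do not state whether replicate libraries stem from different mice, and p-values therefore reflect sample-to-sample spread that could be technical. Between tumour genotypes the gates served as replicates, and between gates the genotypes did. For tumour against Tbr skin the genotypes and the skin lineages did. Replicate libraries were not duplicates, with 15.7 to 295.5 as the chi-square over its degrees of freedom. Intervals cover counting error only.

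The 7 members, the 40 pathway genes, the markers and the alternatives were chosen with earlier results of these data known. Pathway genes named are the 6 called genes of largest change in a comparison, fewer where space asks or where a gene is not reported here, with Il7r, Il22ra1 and Il6st, and Il19, Il20, Il22, Il31 and Lif as further ligands named after their values were seen. For each member the 3 genes of highest Pearson r are named. Peaks were merged where they overlap by at least 1 base. Sequences and gene spans are from RefSeq, GRCm38.p6, the assembly that mm10 also names.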

Additional observations from a re-analysis of the deposited data

Results flagged for a closer look

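The wound response differed between the HFSC lineage and EpdSC of CL, by the test of the difference itself (HFSC lineage minus EpdSC), for 2 of 7 members and 13 of 37 pathway genes, where 15.8% of all genes passed. The 8 pathway genes named here are the 6 of largest difference with the receptor partners. For Il20ra the response was 0.64 ± 0.30 in the HFSC lineage and -3.91 ± 0.33 in EpdSC, a difference of 4.55 ± 0.44 (edgeR, adjusted p = 0.00105). For Crlf2 it was 0.33 ± 0.24 in the HFSC lineage and 2.13 ± 0.24 in EpdSC, a difference of -1.80 ± 0.33 (edgeR, adjusted p = 0.0119).

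Of the receptor partners, Il7r differed by -7.04 ± 1.42 (edgeR, adjusted p = 0.0165), Il22ra1 by -1.27 ± 0.27 (edgeR, adjusted p = 0.0198) and Il6st by 2.48 ± 0.39 (edgeR, adjusted p = 0.00605). Il27ra differed by -10.35, Il10ra by -8.65 and Cntfr by -5.60 (edgeR, adjusted p = 0.0304, 0.00392 and 0.0133), fitted values that rest on EpdSC with few or 0 reads and are no bounds. Jak3 differed by -3.17 ± 0.37 (edgeR, adjusted p = 0.00208), with a response of -2.38 ± 0.27 in the HFSC lineage and 0.79 ± 0.26 in EpdSC. Il22ra2 differed by 2.52 ± 0.65 (edgeR, adjusted p = 0.0380), with -5.71 ± 0.41 in the HFSC lineage and -8.23 ± 0.44 in EpdSC. Crlf2, Il7r, Il27ra and Il10ra were higher in the CL wounded EpdSC libraries than in the wounded HFSC lineage, as were leukocyte markers, whose part was not tested.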

How the results depend on the processing

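Of the 30 calls on members, 20 held under every alternative run, 10 lost the threshold under at least 1, and 0 reversed. Of the 47 values that did not pass, 20 passed under at least 1 alternative and 13 changed sign under at least 1. With 1 or 2 libraries a group, left-out libraries leave a lone sample that is assumed to vary like the other groups.

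The number of members called with 1 library left out ranged over 3 to 4 (main 5) for the wounded HFSC lineage against HFSC, 1 to 3 (main 3) against wounded EpdSC, 1 to 3 (main 2) for the difference of responses, 3 to 4 (main 0) for BK wounding, 3 to 5 (main 3) for BK HFSC against EpdSC, 0 to 2 (main 0) between the gates, 3 to 5 (main 3) for TbrKO and 1 to 6 (main 4) for tumour against Tbr skin. The number of all genes called also moved with libraries left out (given at the end), so these ranges do not describe the members alone. DESeq2 called 4 members for the difference of responses (27.3% of all genes), as did no filter (16%). In BK wounding DESeq2 called 2 (23.3%) and no filter 1 (11.7%). DESeq2 called 1 between the gates (11.2%) and 1 for HRas TbrKO against HRas (2.67%). With a window of 500 bases 2 of 5 starts had an EpdSC peak.

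Sign changes with libraries left out spanned -1.12 to 0.12 (Il24) and -0.23 to 0.16 (Il20rb) between wounded groups, -0.13 to 0.60 (Tslp) for the difference of responses, -0.27 to 0.24 (Crlf2) and -1.12 to 0.28 (Il20ra) in BK wounding, -0.33 to 0.20 (Tslp) and -0.37 to 0.065 (Crlf2) between gates, -2.21 to 2.01 (Il20ra) for TbrKO, -0.41 to 0.15 (Il24), -1.45 to 1.36 (Il20ra) and -0.47 to 0.40 (Osmr) for HRas TbrKO, and -1.26 to 0.86 (Tslp) for tumour against Tbr skin. No filter gave Crlf2 -0.019 in BK wounding, and no genotype block gave Tslp 0.11 and Osmr 0.026 between gates. The cause was not tested.

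The letters A and B of CL were not taken as pairs, since correlations of A minus B between groups ran from -0.15 to 0.39 (the 2 wounded groups) and not all were positive. These values do not settle whether the 2 wounded groups are paired with each other. The block tried sets the same A to B shift for all CL libraries, and a pairing within the wounded groups alone was not tried. With the letter as a replicate block, 4 members and 43.5% of all genes passed in the HFSC lineage response (Il20rb lost its call; edgeR, adjusted p = 0.0532). In the EpdSC response 7 members passed (57.2% of genes), between wounded groups 3 (14%), between HFSC and EpdSC 3 (9.91%) and for the difference 2 (13.3%). The numbers of BK correlated at -0.21. For BK HFSC against EpdSC a replicate block called 4 members (16.6% of genes) and the crossed pairing, chosen after seeing the data, 5 (24.6%). All genes called ranged, over all alternatives, from 4064 to 7545 for the HFSC lineage response (main 6835), 5735 to 9888 for EpdSC (main 8663), 541 to 7460 between wounded groups (main 2847), 505 to 2502 for CL HFSC against EpdSC (main 1605), 789 to 6499 for the difference of responses (main 2339), 989 to 6848 in BK wounding (main 1169), 1260 to 6486 for BK HFSC against EpdSC (main 2108), 0 to 2908 between gates (main 446), 2774 to 7294 for TbrKO (main 6324), 0 to 404 for HRas TbrKO (main 0) and 909 to 5745 for tumour against Tbr skin (main 3323).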
